A study of Rattus norvegicus with 6 samples.

Results

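The proteasome gene set of the rat kidney was described here, as transcripts of the constitutive subunits and the factors that assemble, activate or inhibit them. Members were the genes of the series whose symbols begin with Psma, Psmb, Psmc, Psmd, Psme, Psmf or Psmg and a digit, without the inducible subunits Psmb8, Psmb9 and Psmb10. The rule found 46 of the 17051 listed genes, and all 46 reached a count of 30 in at least 1 rat, among 11553 genes that did. Of these, 45 are proteasome genes. Psmc3ip, a meiotic recombination factor, only shares the symbol pattern. It was kept out of the counts and medians over the 45.

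Kidney RNA had been sequenced from male Sprague Dawley rats after a week on standard chow taken freely (AL group, rats 61, 71 and 88) or on chow powder with an amino acid mixture that mimics haemoglobin (hyperammonemic diet, HD group, rats 64, 67 and 69). The diets are a model of a high ammonia load in healthy animals. Ages are not given in the sources used here. Each rat was 1 library of bulk kidney, so a change in the number of cells of a type cannot be told apart from a change in RNA per cell. Total estimated counts ran from 13221487 to 16455405 in the AL group and from 12499945 to 30466461 in the HD group. Between 0.473% and 0.530% of each library was assigned to the proteasome symbols. The markers of the proximal tubule were present in every rat, with a summed level of 1312 to 1821 TPM (the transcript level corrected for length and library size) in the AL group and 2186 to 2967 TPM in the HD group. Markers of the loop and collecting duct summed to 1961 to 2251 TPM in the AL group and 1354 to 1976 TPM in the HD group. Single markers within a sum went opposite ways. Log2 fold changes (HD minus AL) ran from -0.05 to 1.07 over the 5 proximal tubule markers, 4 of them above 0. They ran from -0.86 to 2.93 over the 5 loop and collecting duct markers, 1 of them above 0. Slc34a1 gave most of the proximal tubule sum, with a mean of 1132 TPM for AL rats and 1767 TPM for HD rats.

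The proteasome is the main protease of the cytosol and the nucleus, and it degrades proteins that carry ubiquitin chains. Its core particle is a barrel of stacked rings, in which alpha subunits guard the entry and the beta subunits Psmb5, Psmb6 and Psmb7 cut the chain. The regulatory particle has a base of ATPases, which unfold the substrate, and a lid that removes ubiquitin. Most cells need all of these subunits, and their genes are expressed in nearly every tissue. The transcription factor Nfe2l1 raises them together when proteasome activity falls short.

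The files hold 15 core genes with broad expression, 8 of the alpha ring (Psma1 to Psma7 and Psma3l, a listed copy of Psma3) and 7 of the beta ring (Psmb1 to Psmb7). The regulatory particle has 17, with 9 in the base (Psmc1 to Psmc6, Psmd1, Psmd2 and Psmd4) and 8 in the lid (Psmd3, Psmd6, Psmd7, Psmd8, Psmd11, Psmd12, Psmd13 and Psmd14). Assembly chaperones number 6 (Psmd5, Psmd9, Psmd10, Psmg1, Psmg2 and Psmg4). There are 5 alternative activators and inhibitors (Psme1 to Psme4 and Psmf1) and 2 core subunits known mainly from testis and thymus (Psma8 and Psmb11). Each member has 1 transcript, and its length ran from 429 to 7277 bases with a median of 1340. The median of all tested genes was 2137 bases.

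The diet comparison asked whether the proteasome transcripts differed between the HD and AL groups. They hardly did: the median log2 fold change (HD minus AL) of the 45 genes was 0.016, beside 0.0067 for all tested genes, and single genes ran from -0.24 for Psma3 to 0.34 for Psmd11, with 30 of the 45 above 0. With library size alone 11 of the 45 lay above 0, and on TPM 12, where the median of all tested genes was itself -0.07 and -0.06. edgeR's quasi-likelihood test gave no member an adjusted *P* value of 0.05 or less. Their adjusted *P* values ran from 0.468 to 0.997, and 0 of the 11553 tested genes (0%) passed in that test. DESeq2 called 182 genes (1.58% of all tested) and none of the 45, the lowest adjusted *P* value among them being 0.442. Without adjustment, 1224 genes (10.6%) had a *P* value under 0.05 in edgeR, 538 of them higher in the HD group (4.66%) and 686 lower (5.94%), and 1325 (11.5%) had one in DESeq2. Among the 45, edgeR gave 1 higher gene, Psmd11, and 0 lower genes, and DESeq2 gave 0.

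Large differences were few among the proteasome genes. An absolute log2 fold change of 0.25 or more was found for 4122 tested genes (35.7%) and for 1 of the 45. Proteasome genes are abundant, and abundant genes have less counting error. Of the 6432 genes with a mean of at least 20 CPM (read counts scaled to a fixed library size), 21.8% reached that size, and of the 42 proteasome genes at that level 1 did. At an unadjusted *P* value under 0.05 edgeR called 8.8% of these abundant genes and 1 of the 42. The 95% interval of the fold change lay within a 1.5-fold change in either direction for 39 of the 45 and within a 2-fold change for 44. The widest interval was that of Psmb11, from 0.488-fold to 1.76-fold.

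**Figure D1:**
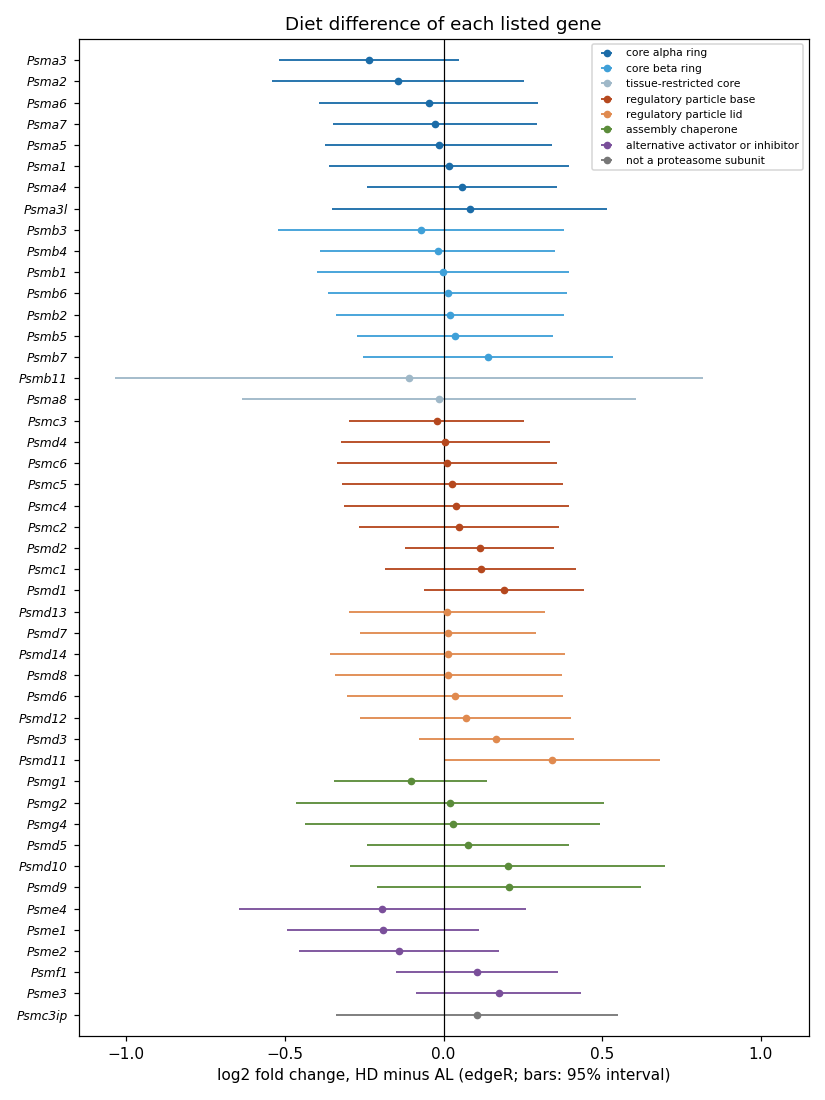
Log2 fold change of each of the 46 genes (HD minus AL, edgeR), ordered by class, with the 95% interval as a bar. The points lie between -0.24 and 0.34, and every interval except that of Psmd11 crosses 0.

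Groups that do not overlap were also counted, on CPM after edgeR's TMM scaling. All HD rats lay on one side of all AL rats for 1648 tested genes (14.3%), 838 with HD higher (7.25%) and 810 with HD lower (7.01%). Among the 45 there were 3, namely Psmd1 and Psmd3 with HD higher and Psmg1 with HD lower. For abundant genes the share was 13.1%, against 3 of 42 here. For each of these 3 genes the two-sided exact permutation test gave a *P* value of 0.1, the smallest that 3 rats against 3 allow. The genes depended on the scale. On TPM the groups overlapped for these 3, while Psma3, Psmc3, Psme1 and Psme2 had all HD rats below all AL rats. The share of all tested genes without overlap on TPM was not counted.

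The beta ring holds the catalytic sites. Psmb5, which carries the chymotrypsin-like site, had 148, 124 and 140 CPM in AL rats 61, 71 and 88 and 150, 152 and 121 CPM in HD rats 64, 67 and 69. Psmb6, the caspase-like subunit, had 147, 100.3 and 130 CPM in the AL rats and 129, 138 and 114 CPM in the HD rats. Psmb7, the trypsin-like subunit, had 229, 153 and 201 CPM and 221, 231 and 190 CPM in the same order. In all 3 the groups overlapped, rat 71 was the lowest AL rat and rat 69 the lowest HD rat. The log2 fold changes were 0.04 (SE 0.13) for Psmb5, 0.013 (SE 0.161) for Psmb6 and 0.14 (SE 0.17) for Psmb7, the highest of the ring, with edgeR adjusted *P* values of 0.960, 0.989 and 0.836. The lowest of the ring was Psmb3, a structural subunit, at -0.07 (SE 0.19), with 99.9, 63.5 and 89.7 CPM in the AL rats and 78.1, 93.6 and 69.0 CPM in the HD rats. Of the 7 beta genes 4 had a value above 0 (1 with library size alone and on TPM).

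The promoters of the catalytic subunits, of the inducible Psmb8 and of Psmd11 are printed to show which sequence elements stand in front of these genes. A relation of the motifs to diet was not tested. They are RefSeq sequences on build GRCr8, from 250 bases before to 50 bases after the start site, 5′ to 3′ on the gene's strand. Capitals mark matches on either strand to the motifs TGACNNNGC (core of the antioxidant response element, bound by Nfe2l1 with small Maf proteins), CCAAT (NF-Y), GGCGGG (Sp family), CCGGAAG (ETS family) and GAAA followed by any 2 bases and GAAA (interferon response factors). None of these motifs contains another.
Psmb5 (chr15:32047330-32047629, minus strand): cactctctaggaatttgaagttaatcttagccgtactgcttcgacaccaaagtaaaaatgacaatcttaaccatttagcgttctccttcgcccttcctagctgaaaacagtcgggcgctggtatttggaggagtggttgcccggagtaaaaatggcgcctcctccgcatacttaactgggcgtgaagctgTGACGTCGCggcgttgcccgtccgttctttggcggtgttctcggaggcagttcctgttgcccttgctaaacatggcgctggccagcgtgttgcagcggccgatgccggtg
Psmb6 (chr10:55737638-55737937, plus strand): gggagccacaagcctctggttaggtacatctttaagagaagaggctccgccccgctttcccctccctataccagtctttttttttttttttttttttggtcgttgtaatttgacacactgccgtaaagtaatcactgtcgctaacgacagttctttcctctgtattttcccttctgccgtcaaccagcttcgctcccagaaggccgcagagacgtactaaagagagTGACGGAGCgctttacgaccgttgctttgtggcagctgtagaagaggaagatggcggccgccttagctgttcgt
Psmb7 (chr3:42827421-42827720, minus strand): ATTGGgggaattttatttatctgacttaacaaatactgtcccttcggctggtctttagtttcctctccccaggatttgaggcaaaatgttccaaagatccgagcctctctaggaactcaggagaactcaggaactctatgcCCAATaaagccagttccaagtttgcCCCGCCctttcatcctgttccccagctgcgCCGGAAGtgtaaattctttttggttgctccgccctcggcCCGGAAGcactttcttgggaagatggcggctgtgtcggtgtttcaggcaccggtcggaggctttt
Psmb8 (chr20:4656982-4657281, minus strand): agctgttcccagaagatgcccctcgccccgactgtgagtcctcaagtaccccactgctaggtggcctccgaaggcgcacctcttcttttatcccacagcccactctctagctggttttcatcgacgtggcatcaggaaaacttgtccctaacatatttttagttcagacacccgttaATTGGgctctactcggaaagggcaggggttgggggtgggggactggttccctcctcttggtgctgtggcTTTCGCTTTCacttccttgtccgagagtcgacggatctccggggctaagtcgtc
Psmd11 (chr10:65932093-65932392, plus strand): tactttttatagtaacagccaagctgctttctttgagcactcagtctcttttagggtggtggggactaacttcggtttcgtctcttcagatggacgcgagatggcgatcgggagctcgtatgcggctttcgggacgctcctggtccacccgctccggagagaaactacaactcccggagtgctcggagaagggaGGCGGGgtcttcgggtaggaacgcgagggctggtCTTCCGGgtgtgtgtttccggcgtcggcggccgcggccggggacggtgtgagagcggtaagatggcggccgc

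A promoter was found for 39 of the 45 genes; none was listed under the symbols Psma3l, Psma7, Psmb11, Psmd12, Psmd14 and Psmd6. The ETS motif was in 14 of the 39 (35.9%), beside 8.75% of the 33469 promoters in the table. The Sp motif was in 22 (56.4%, beside 32.0%), CCAAT in 18 (46.2%, beside 37.5%) and TGACNNNGC in 8 (20.5%, beside 12.1%). The interferon response motif was in 5 (12.8%, beside 3.92%) and in 2 of the 3 inducible subunits. The TGACNNNGC match ended 52 bases before the start site in Psmb5 and 16 bases before it in Psmb6, and these letters were not in the printed windows of Psmb7, Psmb8 and Psmd11. The 33469 promoters were not limited to genes tested here, so the members were not compared with other genes expressed in kidney. A match is a string of letters and not evidence of binding.

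The alpha ring forms the gate of the core. Its median log2 fold change was -0.02, with 3 of 8 genes above 0 (1 with library size alone and on TPM). The lowest value was that of Psma3, at -0.24 (SE 0.12, edgeR adjusted *P* value 0.547). Psma3 had 51.2, 41.7 and 50.03 CPM in the AL rats and 39.8, 43.4 and 38.2 CPM in the HD rats, so HD rat 67 lay above AL rat 71. On TPM all HD rats lay below all AL rats for this gene. The highest value of the ring was that of Psma3l, at 0.08 (SE 0.19, adjusted *P* value 0.926 by edgeR), with 99.9, 71.2 and 79.7 CPM in the AL rats and 91.6, 104 and 70.1 CPM in the HD rats. Psma7, the most abundant alpha gene, had 262, 199.7 and 227 CPM in the AL rats and 218, 248 and 209 CPM in the HD rats, a log2 fold change of -0.03.

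Psma3 and Psma3l cannot be read apart with confidence. On build rn5 the files place both on the plus strand of chromosome 6, Psma3 at 102868534 to 102898751 and Psma3l at 102868509 to 102897656, with 11 exons each and 1967 and 897 bases of transcript. RefSeq lists Psma3l as a synonym of Psma3. Psma3l took 66.1%, 63.0% and 61.4% of the reads assigned to the pair in AL rats 61, 71 and 88 and 69.7%, 70.5% and 64.7% in HD rats 64, 67 and 69. The shares overlapped between the groups. With the 2 summed to 1 gene, the log2 fold change was -0.03 (SE 0.16, edgeR adjusted *P* value 0.977). In that fit 2 of 7 alpha genes and 6 of 14 core genes lay above 0.

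Psma8, an alpha subunit of the testis, and Psmb11, a beta subunit of the thymic cortex, were the 2 least abundant members. Psma8 had 3.73, 3.10 and 3.71 CPM in the AL rats and 2.80, 3.90 and 3.68 CPM in the HD rats, with a log2 fold change of -0.01 (SE 0.27). Psmb11 had 1.19, 1.83 and 1.99 CPM in the AL rats and 1.02, 1.75 and 1.82 CPM in the HD rats, with a log2 fold change of -0.11 (SE 0.40). Its estimated counts ran from 12.5 in rat 64 to 57.1 in rat 69, so it was the member with the least counting precision.

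The base of the regulatory particle unfolds and feeds the substrate. Its median log2 fold change was 0.04, with 8 of 9 genes above 0 (3 of 9 with library size alone and on TPM). Psmd1, the large scaffold of the base, had the highest value, at 0.19 (SE 0.11, edgeR adjusted *P* value 0.590). It had 116, 117 and 118 CPM in the AL rats and 138, 143 and 119.99 CPM in the HD rats, so the groups did not overlap, with rat 69 closest to the AL rats. Psmc3, an ATPase, had the lowest value, at -0.02 (SE 0.12), with 183, 151 and 167 CPM in the AL rats and 157, 178 and 158 CPM in the HD rats. The ubiquitin receptor Adrm1, which the symbol rule leaves out, had 149.9, 112 and 132 CPM in the AL rats and 150.1, 169.6 and 125 CPM in the HD rats (log2 fold change 0.17, SE 0.16, adjusted *P* value 0.763 by edgeR).

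The lid removes ubiquitin before the substrate enters. With TMM scaling all 8 lid genes of the symbol rule had a log2 fold change above 0, with a median of 0.03. With library size alone and on TPM 2 of 8 did. Shfm1, a lid subunit that the rule leaves out, went the other way (log2 fold change -0.15, SE 0.18, edgeR adjusted *P* value 0.834). It had 218, 154 and 178 CPM in the AL rats and 170, 190 and 136 CPM in the HD rats. Psmd11, a lid scaffold that helps to join the regulatory and core particles, had the highest value of all members. It had 81.3, 80.9 and 75.4 CPM in AL rats 61, 71 and 88 and 115, 105 and 81.2 CPM in HD rats 64, 67 and 69. HD rats 64 and 67 lay above all AL rats, while rat 69 lay at the level of the AL rats. The log2 fold change was 0.34 (SE 0.15), which is 1.27-fold with a 95% interval of 1.00 to 1.60 and an edgeR adjusted *P* value of 0.468. Its unadjusted *P* value by edgeR was 0.0481, and it stayed under 0.05 with 1 rat left out only without rat 69, where the log2 fold change was 0.48. The exact permutation test gave a *P* value of 0.2. Psmd3, another lid scaffold, had 179, 156 and 166 CPM in the AL rats and 193, 183 and 185 CPM in the HD rats. Its groups did not overlap, with a log2 fold change of 0.17 (SE 0.10, edgeR adjusted *P* value 0.639). The lowest value of the 8 lid members was that of Psmd13, at 0.0099 (SE 0.132). Psmd13 had 147, 118 and 139 CPM in the AL rats and 137, 149 and 120 CPM in the HD rats.

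Assembly chaperones pair the subunits before they are built in. Their median log2 fold change was 0.05, with 5 of 6 genes above 0 (2 with library size alone and 3 on TPM). Psmd9, a chaperone of the base, had the highest value at 0.21 (SE 0.18), with 40.8, 26.3 and 38.4 CPM in the AL rats and 42.2, 36.9 and 42.5 CPM in the HD rats. Rat 71 was the low AL rat, and the other AL rats lay within the HD range. Psmg1, a chaperone of the alpha ring, had 43.4, 41.8 and 43.5 CPM in the AL rats and 36.8, 41.8 and 41.1 CPM in the HD rats. HD rat 67, at 41.82 CPM, fell short of AL rat 71, at 41.85 CPM, by less than 0.1 CPM, and the log2 fold change was -0.10 (SE 0.10, edgeR adjusted *P* value 0.791). Psmd10 is placed on chromosome 3 of rn5 with 429 bases, whereas RefSeq has the gene on another chromosome, so its value of 0.20 is uncertain.

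The alternative activators had the lowest median of the classes with more than 2 members, -0.14, with 2 of 5 genes above 0. Psme1 and Psme2, the interferon-inducible pair that caps the core, had log2 fold changes of -0.19 (SE 0.13) and -0.14 (SE 0.14). Psme1 had 222, 185 and 224 CPM in the AL rats and 168, 204 and 181 CPM in the HD rats. Psme3, the nuclear activator, had the highest value, 0.17 (SE 0.11), with 109, 104 and 116 CPM in the AL rats and 132, 126 and 112 CPM in the HD rats. Psme4, an activator linked to histone degradation, had the lowest, -0.19 (SE 0.19), with 134, 202 and 211 CPM in the AL rats and 139, 159 and 181 CPM in the HD rats. In all 3 genes given by rat the groups overlapped in CPM, and for Psme4 the lowest of the 6 values was that of AL rat 61. On TPM all HD rats lay below all AL rats for Psme1 and for Psme2. The inhibitor Psmf1 had a log2 fold change of 0.10. Psmc3ip, the gene outside the proteasome, had 16.4, 12.4 and 13.3 CPM in the AL rats and 15.02, 17.6 and 12.7 CPM in the HD rats.

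The core and the regulatory particle were then compared within each rat. The median log2 fold change was -0.0027 over the 15 core genes, with 7 above 0, and 0.04 over the 17 regulatory genes, with 16 above 0. Adrm1 (above 0) and Shfm1 (below 0) are not among the 17. The counts of genes above 0 depend on the scaling. With library size alone they were 2 of 15 and 5 of 17, and on TPM also 2 of 15 and 5 of 17, while the median of all tested genes moved to -0.07 and -0.06. Relative to the median of all tested genes, 7 core genes and 15 regulatory genes lay above it with TMM, 7 and 16 with library size alone, and 7 and 14 on TPM. The counts turned with single rats. Without AL rat 71 they were 0 of 15 and 5 of 17 above 0, and without HD rat 67 they were 2 and 5. Without AL rat 61 they were 13 and 17, as they were without HD rat 69.

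The mean log2 level of the core minus that of the regulatory particle needs no scaling between libraries. In CPM it was 0.03, -0.16 and -0.02 in AL rats 61, 71 and 88 and -0.13, -0.10 and -0.15 in HD rats 64, 67 and 69. Its mean was -0.05 ± 0.10 over the AL rats and -0.13 ± 0.03 over the HD rats (SD, n = 3 each). The difference of -0.08 was smaller than the AL spread, and AL rat 71 lay below all HD rats. The alpha minus the beta ring was -0.28, -0.17 and -0.26 in the AL rats and -0.30, -0.29 and -0.31 in the HD rats. All HD rats lay below all AL rats there, and the difference of -0.06 was about the size of the AL spread (SD 0.06). The base minus the lid differed by -0.02, with overlapping groups. Core transcripts had 773 (Psmb6) to 1967 bases (Psma3), and regulatory ones had 1288 (Psmc5) to 3344 bases (Psmd11). All tested genes under 1000 bases shifted by rat in CPM. Their median deviation from a gene's own mean was 0.17, -0.14 and -0.05 log2 units in the AL rats. In the HD rats it was -0.01, 0.09 and -0.02. The part of length in the core minus regulatory difference was not tested.

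The mean level of the 45 genes differed more between rats of 1 diet than between the diets. In CPM, 38 of the 45 lay above their own 6-rat mean in AL rat 61, 3 in rat 71 and 25 in rat 88. In the HD group the counts were 27 in rat 64, 42 in rat 67 and 6 in rat 69. Over all tested genes the share above the mean stayed between 48.4% and 52.6% in every rat. It moved more among shorter genes. For genes of 959 to 1623 bases it was 61.1%, 38.4% and 42.9% in the AL rats and 52.6%, 60.0% and 49.1% in the HD rats. For genes under 1000 bases it was 69.8%, 28.2% and 36.8% in the AL rats and 47.4%, 67.9% and 45.9% in the HD rats. Rat 71 had the lowest value of the 6 for 23 of the 45 genes and rat 69 for 13, while rat 67 had the highest for 20 and rat 61 for 16. All 15 core genes lay above their mean in rat 61, and none did in rats 71 and 69. The mean deviation over the 45 genes was 0.12, -0.18 and 0.02 log2 units in AL rats 61, 71 and 88 and 0.02, 0.15 and -0.13 in HD rats 64, 67 and 69. The mean log2 CPM over the 45 was 6.39 ± 0.15 for AL rats and 6.42 ± 0.14 for HD rats (SD, n = 3 each).

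The same rat pattern was present in TPM once the shift of all genes was taken off, which follows largely from the arithmetic. TPM and CPM come from the same counts and differ mainly by transcript length and a scale factor for each rat. Taking off the median of all genes largely removes that factor, so TPM is no separate check of the pattern. In TPM the mean deviations of the 45 were 0.01, -0.03 and 0.08 log2 units in the AL rats and -0.05, 0.05 and -0.07 in the HD rats. The TPM of all tested genes shifted too, with median deviations of -0.10, 0.15 and 0.05 in the AL rats and -0.07, -0.07 and 0.06 in the HD rats, and between 32.3% and 74.8% of genes lay above their own mean in a rat. Relative to these medians the 45 genes stood at 0.11, -0.17 and 0.03 in the AL rats and 0.02, 0.13 and -0.13 in the HD rats. The mean log2 TPM of the 45 was 6.67 ± 0.05 for AL rats and 6.62 ± 0.07 for HD rats (SD, n = 3 each), a difference of -0.04 that goes with the TPM shift of all genes, whose median fold change on that scale was -0.06. Transcript length moved with the rats as well. The 1129 tested genes under 1000 bases had median CPM deviations of 0.17, -0.14 and -0.05 log2 units in AL rats 61, 71 and 88 and -0.01, 0.09 and -0.02 in HD rats 64, 67 and 69. The 1728 genes over 4000 bases had -0.08, 0.12 and 0.05 in the AL rats and -0.06, -0.06 and 0.01 in the HD rats. The 2623 genes of 959 to 1623 bases, the middle range of the members, had 0.07, -0.07 and -0.03 in the AL rats and 0.02, 0.05 and -0.0043 in the HD rats. The part of length in the proteasome pattern was not tested.

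**Figure D2:**
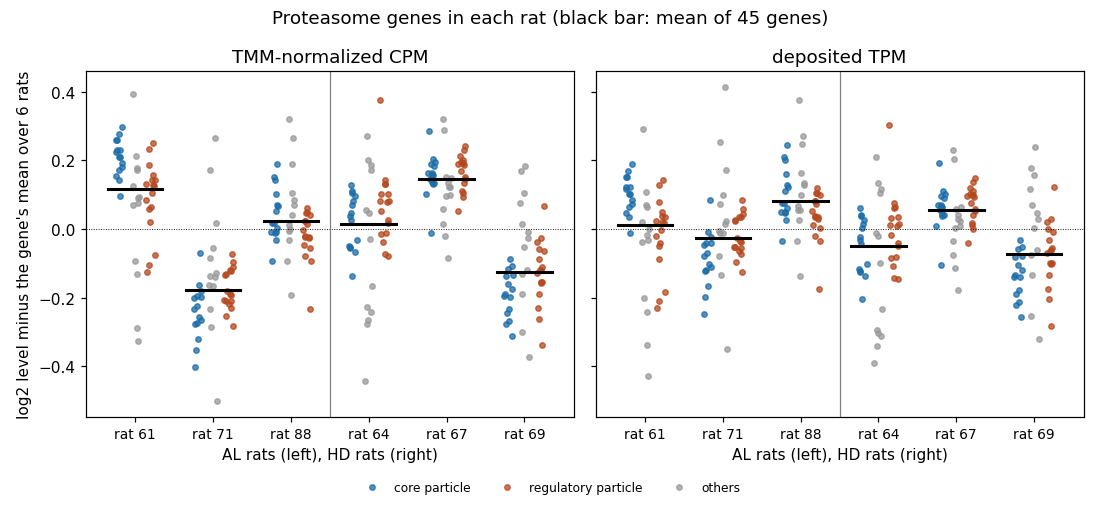
Deviation of each of the 45 proteasome genes from its own 6-rat mean, in log2 units and by rat, in CPM (left) and in TPM (right), with 1 point per gene and a black bar at the mean. In CPM rats 61 and 67 lie high (means 0.12 and 0.15) and rats 71 and 69 low (-0.18 and -0.13), with AL and HD rats on both sides; in TPM the means lie between -0.07 and 0.08, while all tested genes shift by rat on that scale (medians -0.10 to 0.15).

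The median log2 fold change of the 45 followed the rats that were included. It was 0.12 without AL rat 61 and 0.11 without HD rat 69, and -0.08 without AL rat 71 and -0.06 without HD rat 67. It was 0.010 without HD rat 64 and 0.04 without AL rat 88. The median of all tested genes stayed between -0.0035 and 0.02 in the same fits.

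Levels between genes were compared in TPM only. The most abundant members were Psmb1, a structural beta subunit, at 429 ± 35.6 TPM, and Psma7, at 404 ± 23.1 TPM (mean and SD over 6 rats). They were followed by Psmb7 at 336 ± 28.4 TPM, Psmb4 at 329 ± 25.6 TPM and Psme1 at 317 ± 39.2 TPM. Psmb1 had 253.8, 172 and 208 CPM in the AL rats and 216, 234 and 182 CPM in the HD rats, a log2 fold change of -0.0027 (SE 0.170). The catalytic Psmb6 and Psmb5 stood next, at 266 ± 20.7 and 264 ± 13.2 TPM. At the other end Psma8 had 2.99 ± 0.363 TPM and Psmb11 had 0.992 ± 0.290 TPM. Psma3 was the next lowest, at 35.01 ± 4.35 TPM, although its listed copy Psma3l had 154 ± 16.1 TPM. Of the 44 neighbouring pairs in this order only 7 were further apart than their combined SD.

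Core genes had higher median levels than regulatory genes. The median over genes was 239 TPM for the core, 266 TPM in the beta ring and 181 TPM in the alpha ring. It was 145 TPM for the base and 115 TPM for the lid. It was 44.5 TPM for the assembly chaperones and 68.9 TPM for the activators and inhibitors. By group, the core median was 248 TPM for AL and 225 TPM for HD, and the regulatory median was 125 TPM for AL and 134 TPM for HD. The core median was the level of Psma6 in the AL group and of Psma2 in the HD group. The regulatory median was the level of Psmd3 in both groups, so neither median describes its class. On log2 TPM the median fold change was -0.06 over the core genes and -0.04 over the regulatory genes, with 2 of 15 and 5 of 17 above 0. Over all tested genes that median was -0.06.

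**Figure D3:**
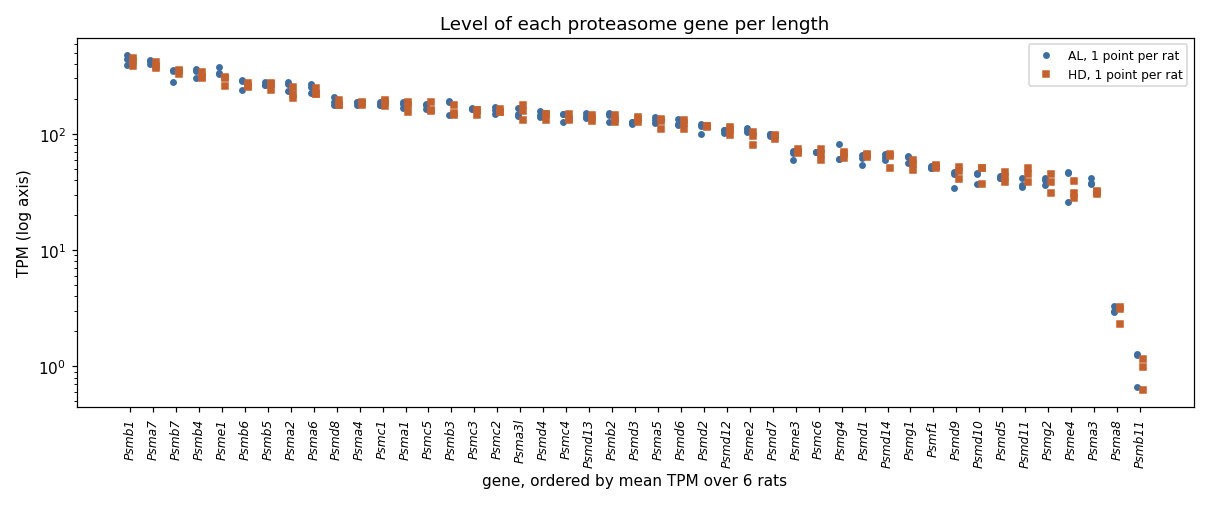
TPM of each of the 45 proteasome genes in every rat on a log axis, ordered by the mean over 6 rats, with AL rats as circles and HD rats as squares. Levels run from 429 TPM for Psmb1 to 0.992 TPM for Psmb11. For most genes the AL and HD points overlap, but for Psma3, Psmc3, Psme1 and Psme2 all HD points lie below all AL points.

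The inducible subunits Psmb8, Psmb9 and Psmb10 replace Psmb5, Psmb6 and Psmb7 in the immunoproteasome, which interferon induces in many cells and leukocytes make constantly. Their shares of these pairs were measured for contrast. In TPM, Psmb8 made up 6.34%, 9.65% and 7.80% of the sum of Psmb8 and Psmb5 in AL rats 61, 71 and 88 and 3.88%, 5.85% and 5.76% in HD rats 64, 67 and 69. Psmb9 made up 8.28%, 9.34% and 7.44% of its pair with Psmb6 in the AL rats and 5.67%, 7.19% and 6.21% in the HD rats. Psmb10 made up 6.29%, 9.17% and 8.61% of its pair with Psmb7 in the AL rats and 4.56%, 4.66% and 7.29% in the HD rats. All HD rats lay below all AL rats in the first 2 pairs, and in the third HD rat 69 lay above AL rat 61. The CPM of the inducible genes alone gave another order. All HD rats lay below all AL rats for Psmb8 and Psmb10, as they did for 7.01% of all tested genes. For Psmb9 the groups overlapped, with 12.8 CPM in HD rat 67 and 12.4 and 12.5 CPM in AL rats 71 and 88.

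The mean share of Psmb8 was 7.93% ± 1.65 for AL rats and 5.16% ± 1.11 for HD rats (SD, n = 3 each). Exact permutation tests on the log ratio of each pair gave two-sided *P* values of 0.1, 0.1 and 0.2 for the 3 pairs, with 0.15, 0.15 and 0.2 after Benjamini-Hochberg adjustment, and 0.1 is the smallest possible. Psmb8 had a log2 fold change of -0.61 (SE 0.21, edgeR adjusted *P* value 0.406), Psmb9 of -0.39 (SE 0.21, adjusted *P* value 0.564 by edgeR) and Psmb10 of -0.43 (SE 0.19, edgeR adjusted *P* value 0.478), while those of Psmb5, Psmb6 and Psmb7 were between 0.01 and 0.14. All 3 values were below 0 in every alternative fit and with each rat left out, but none of the 3 passed the adjusted test, and Psmb8 had an unadjusted *P* value of 0.0224 by edgeR.

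Markers of other cells moved with the inducible subunits. All 9 tested leukocyte markers had lower levels in the HD group (median log2 fold change -1.37), 7 of them with an unadjusted *P* value under 0.05 by edgeR, beside 5.94% of all tested genes with HD lower. At an adjusted *P* value of 0.05 edgeR called none of the leukocyte or interferon markers, and DESeq2 called 1 and 2, beside 1.58% of all tested genes. The 10 listed leukocyte markers summed to 302 to 610 TPM in the AL group and 182 to 437 TPM in the HD group, and 1 of them was listed at 0 in 2 HD rats. Of the 9 tested interferon response genes 8 had lower levels in the HD group (median -0.62), and their sum ran from 169 to 251 TPM in the AL group and from 115 to 138 TPM in the HD group. The part of these cells and of interferon in the inducible shares was not tested.

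**Figure D4:**
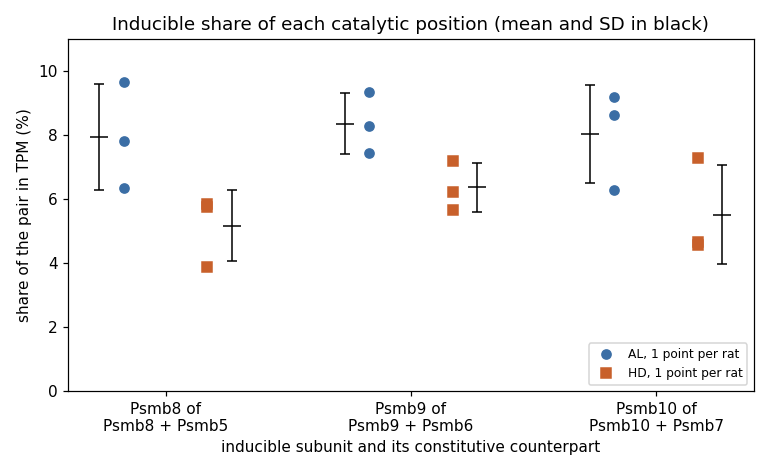
Share of the inducible subunit in the TPM of each inducible and constitutive pair, with 1 point per rat and the mean and SD of 3 rats in black. For Psmb8 the AL rats lie between 6.34% and 9.65% and the HD rats between 3.88% and 5.85%; for Psmb10 the groups overlap.

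Other genes of the ubiquitin and proteasome pathway were read from a fixed list of 35 tested genes. Of these, 23 had a log2 fold change above 0 and 12 below 0, with a median of 0.07, while with library size alone and on TPM 16 lay above 0. None had an adjusted *P* value of 0.05 or less by edgeR or DESeq2, and 1 had an unadjusted *P* value under 0.05 by edgeR.

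The genes that make and regulate proteasomes showed no difference past the test. Nfe2l1, the transcription factor of the subunit genes, had 26.1, 32.6 and 28.7 CPM in the AL rats and 32.4, 26.3 and 34.8 CPM in the HD rats (log2 fold change 0.09, SE 0.15, edgeR adjusted *P* value 0.885). Pomp, the maturation factor of the core, had 181, 131 and 151 CPM in the AL rats and 153, 175 and 128 CPM in the HD rats (log2 fold change -0.02, SE 0.17, adjusted *P* value 0.979 by edgeR). For Pomp rats 71 and 69 were the lowest of their groups. By function, 9 of 11 proteasome-associated factors, 3 of 10 genes of ubiquitin and its activation, all 5 genes of the Vcp segregase and 5 of 6 genes of subunit transcription had values above 0 with TMM scaling.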

How the data were processed

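Kidney RNA of 6 rats had been poly(A)-selected and sequenced as single-end reads, 1 library per rat. Per the labels and the methods, the authors quantified transcripts with RSEM 1.1.15 at default parameters on University of California Santa Cruz gene definitions for build rn5. The authors deposited an estimated count (expected count, not normalized) and its posterior mean per transcript, and TPM values scaled by RSEM to length and library size. FPKM values were not used. The groups came from the diet in the labels.

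Estimated counts were summed per gene symbol and rounded, and genes with a count of 30 or more in at least 1 rat were tested. edgeR 4.0.16 in R 4.3.3 fitted a quasi-likelihood model with diet alone and TMM scaling (factors 0.943 to 1.10), with Benjamini-Hochberg adjustment over all tested genes and a threshold of 0.05. edgeR's common biological coefficient of variation came to 0.242. The SE of a log2 fold change was its size divided by the root of F. Permutation tests used log2(CPM + 0.5). Means over genes used log2 of CPM or TPM plus 0.5. DESeq2 1.42.0, the authors' tool, and limma 3.58.1 on log2(TPM + 0.5) were alternatives, beside RLE, library size alone, other filters, posterior mean counts and each rat left out. The tests were checked on simulated counts with log2 changes of 1 and 2 in size, of which edgeR found 62.3% and 90.4%. Changes as small as those of the members were not simulated. Motifs were searched with Python 3.11.15.

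Members and lists were chosen with earlier results of these data known. Named genes were the catalytic subunits, the highest and lowest fold change of each class, members with an unadjusted *P* value under 0.05, the 2 highest and 2 lowest levels, the inducible subunits, Nfe2l1, Pomp, Adrm1 and pathway genes with an unadjusted *P* value under 0.05. A result covered by this rule is not reported here. Psmd3, Psme1, Psme2, Psmf1, Psmd10, Psmb4, Shfm1 and Slc34a1 were named after their values were seen. Psma3l was added to the class list, and the sum of Psma3 and Psma3l to the alternatives, after the data were seen. The edgeR *P* values set the diet difference against the spread between these rats, estimated with information shared over genes. No batch is given in the labels.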

Additional observations from a re-analysis of the deposited data

How the results depend on the processing

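None of the 45 proteasome genes reached an adjusted *P* value of 0.05 in any fit run, with edgeR, DESeq2 or limma. The count of members with an unadjusted *P* value under 0.05 (1 in the edgeR fit reported) was 0 with DESeq2 and 0 with RLE scaling, and 2 with limma on TPM (Psma3 and Psme1, lower). With library size alone it was 1 but a different gene (Psma3, lower). With 1 rat left out it ran from 0 to 2: Psme4 (lower) without AL rat 61, Psma3 (lower) without AL rat 71, Psmd1 and Psmd11 (higher) without HD rat 69, and 0 without AL rat 88 or HD rat 64 or 67. For the 35 pathway genes the count (1 as reported) was 0 with library size alone and 0 with limma on TPM, and ran from 0 to 3 with 1 rat left out, with 3 without AL rat 61 and 0 without AL rat 71 or 88 or HD rat 64. The median log2 fold change of the members ran from -0.08 to 0.12 and the core median minus the regulatory median from -0.07 to -0.02 with 1 rat left out. Signs turned for genes near 0. With library size alone Psmb5, Psmb6 and Psmd13 had -0.0440, -0.0603 and -0.0690, and with limma on TPM -0.0366, -0.0448 and -0.0599. With a count of 10 or more in every rat Psmb6 had -0.0034 and Psmd13 -0.0074, and with any count above 0 Psmb1 had 0.011. With 1 rat left out the sign also turned for Psma3l (-0.0489 to 0.23), Psma7 (-0.12 to 0.0778), Psma8 (-0.11 to 0.11), Psmb1 (-0.13 to 0.15), Psmb3 (-0.24 to 0.0680), Psmb5 (-0.0332 to 0.14), Psmb6 (-0.13 to 0.14), Psmb7 (-0.00742 to 0.28), Psmb11 (-0.29 to 0.0918), Psmc3 (-0.0891 to 0.0490), Psmc3ip (-0.0212 to 0.23), Psmd13 (-0.0777 to 0.0928) and Pomp (-0.13 to 0.11). The cause was not tested. No paired analysis was possible because the rat numbers in the labels are not shared between the diets. Estimated counts were 124 or more in every rat for all proteasome genes except Psma8 and Psmb11, whose lowest counts were 33.5 and 12.5.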
